A study of Mus musculus with 22 samples.

Results

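RNA polymerase I and the machinery of ribosome biogenesis were followed in kidney through 34 rows of a deposited count table of 55487 rows. The members were taken by gene symbol: 33 protein-coding genes of rRNA transcription and nucleolar processing, and 1 row annotated as ribosomal RNA, CT010467.1. The table held 22 libraries of kidney tissue from male wild-type C57BL/6JRj mice, 1 library per animal. Young mice were 4 months old (n = 6) and old mice were 21 months old (n = 8). A group of old mice, also 21 months (n = 8), had nicotinamide (NAM), the amide of vitamin B3 from which cells make NAD, mixed into their food at 1.6 g per kg. The dose was 200 mg per kg of body weight each day, over 14 weeks. Whole pieces of tissue were used, so a lower level from fewer cells of a type cannot be told apart from less RNA per cell. The labels do not say how the untreated mice were fed.

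Libraries held 3351065 to 8319865 gene counts. For a check, 4 of the 22 were left out, named below as those that stood apart. Young replicate 6 was taken for its low depth. Old replicate 7 and NAM-treated replicate 1 had the lowest share of mitochondrial messenger RNA in their groups (13.8% and 13.4% of gene counts). NAM-treated replicate 7 had the highest share of reads in no gene in its group (23.6%), next to 23.5% in NAM-treated replicate 1. The scan for far libraries at the end flagged only young replicate 6 of these 4 by a read measure. It also flagged NAM-treated replicate 2, for its high depth, which was kept. The 4 are thus ends of their groups rather than clear outliers. Values without these 4 are given where they change a call.

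RNA polymerase I (Pol I) transcribes the rRNA genes in the nucleolus into a long precursor that is cut into the 18S, 5.8S and 28S rRNAs of the ribosome. Selectivity factor 1 (the TAF1A to TAF1D subunits with TBP) and UBTF mark the promoter, RRN3 brings the polymerase to it, and TTF1 ends transcription. Box C/D and box H/ACA ribonucleoproteins then methylate and pseudouridylate the precursor, and assembly factors build the small and the large subunit on it. The kidney is made largely of proximal tubule cells, which are rich in mitochondria and carry their own mitochondrial rRNAs besides the cytosolic ones.

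CT010467.1 (ENSMUSG00000106106) lies on chromosome 17 at 39846353-39848827 on the minus strand in GENCODE M21 (GRCm38), where its gene type is rRNA. The sequence is shown because it tells which rRNA the row stands for and on which strand it was annotated. Its main annotated transcript is 1849 bases long. The first 60 bases of that transcript, and the first and last 60 bases of its reverse complement, all 5′ to 3′, read as follows, with capitals marking the last 9 bases:
CT010467.1, as annotated, start: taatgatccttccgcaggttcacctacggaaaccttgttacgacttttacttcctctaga
CT010467.1, reverse complement, start: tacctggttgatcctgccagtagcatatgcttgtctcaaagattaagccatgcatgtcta
CT010467.1, reverse complement, end: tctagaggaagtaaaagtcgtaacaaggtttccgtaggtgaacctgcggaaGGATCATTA
The reverse complement starts and ends as 18S rRNA does, so the annotated strand is antisense to 18S rRNA. The longest run of A in the reverse complement was 6 bases, at position 815, and in the annotated strand 4 bases. In the row's other transcript, of 714 bases, it was the annotated strand that held a run of 6, at position 221. The reverse complement of that transcript had at most 4. The libraries were primed on poly(A), which mature 18S rRNA does not carry, and the strand setting of the counting is not given in the sources used here. Reads from the rRNA and from its antisense strand therefore cannot be told apart. The overlapping annotated genes Gm42418 and AY036118 share 69.1% of the 50-base words of the row's whole transcripts. No row of the count table was matched to their symbols, so they could not be analysed here.

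CT010467.1 was selected on its values, so its levels are a description without a test. In young kidney it took a median of 4.405% of all gene counts, from 4.15% to 4.60%. In old kidney the median was 5.21%, from 4.51% to 6.48%, with the highest share in replicate 7. In old kidney with NAM the median was 3.72%, from 3.13% to 4.45%. All 8 old libraries lay above all 8 NAM libraries, while old and young overlapped, as did NAM and young. The same row was the one with the lowest p of 14683 genes between NAM and old mice, which is why it is not given as evidence here.

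Mean shares of CT010467.1 were 4.38 ± 0.198% (SD, n = 6) in young, 5.22 ± 0.648% (n = 8) in old and 3.73 ± 0.456% (n = 8) in NAM-treated old mice. The old mean was 1.19 times the young mean, a difference of 0.834 percentage points (SE 0.243). The NAM mean was 1.40-fold lower than the old mean, a difference of -1.48 points (SE 0.280), and it was also below the young mean, by -0.648 points (SE 0.181). On the fitted scale, which corrects for composition, the log2 fold changes were 0.19 (SE 0.078) for old versus young, -0.51 (SE 0.072) for NAM versus old and -0.32 (SE 0.077) for NAM versus young. These 3 comparisons share libraries, so they are not separate pieces of evidence.

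The means of other read classes also differed between the groups, and not all in the same direction as that of this row. The mitochondrial rRNAs mt-Rnr1 and mt-Rnr2 together took 10.1 ± 0.362% of gene counts in young, 11.4 ± 0.632% in old and 9.58 ± 1.06% in NAM-treated mice. Reads outside annotated genes were 20.5 ± 1.30%, 22.8 ± 1.25% and 21.6 ± 1.41% of counted reads in the same order. With mt-Rnr1 and mt-Rnr2 taken out of the denominator, CT010467.1 still showed no overlap between old (5.08% to 7.28%) and NAM (3.39% to 4.99%). Without the 4 libraries that stood apart the log2 ratio of the mean shares was -0.46, against -0.48 with all. Leaving out libraries cannot create overlap, so overlap was no check there. These ranges of CT010467.1 are descriptions, since the row was selected on its values. The part of the other read classes in the row's shares was not tested.

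**Figure D1:**
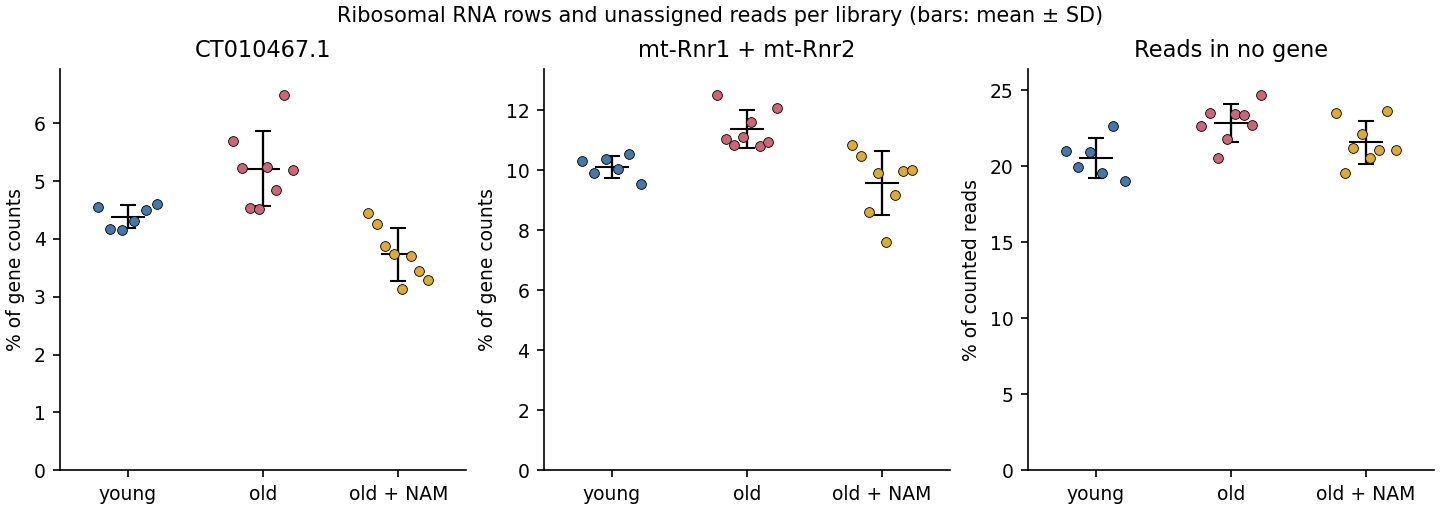
Share of CT010467.1 and of mt-Rnr1 plus mt-Rnr2 in all gene counts, and share of counted reads that fell in no gene, in percent, for each of the 6 young, 8 old and 8 NAM-treated old libraries (points), with mean ± SD (bars). The CT010467.1 points of the NAM group, at most 4.45%, all lie below those of the old group, at least 4.51%; for the other measures the old and NAM groups overlap.

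Across the 22 libraries, the shares of CT010467.1 and of mt-Rnr1 plus mt-Rnr2 had a Pearson r of 0.747 and a Spearman rho of 0.788 with the groups pooled. Without the 2 libraries farthest from the median, r was 0.648. With each group centred on its mean, r was 0.393 (rho = 0.302). Within the groups r was -0.146 in young, 0.255 in old and 0.637 in NAM-treated mice. Both shares have the same denominator. The pooled r of the row's share was 0.405 with reads in no gene (rho = 0.338; centred r = 0.207) and -0.035 with the total gene count (rho = -0.067). That last pooled value hides opposite signs within the groups. There r with the gene count was -0.703 in young, -0.135 in old and 0.627 in NAM-treated mice. These values are descriptions, without a test, like the row's shares themselves.

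Few of the messenger RNAs that make and process rRNA passed the test. All 33 protein-coding members passed the filter on low counts. Between old and young mice 1 of 33 passed an adjusted p of 0.05 (edgeR quasi-likelihood test, Benjamini-Hochberg adjustment over 14683 genes): Rrp12, which fell. Of all genes tested, 3.9% were higher and 3.15% lower in old mice, 7.04% in either direction, against 3.03% of the members. Of the 33, 15 had a positive and 18 a negative log2 fold change, with a median of -0.022 against 0.013 for all genes. At an unadjusted p below 0.05 there were 8 (Polr1e, Taf1c, Rrn3, Nhp2, Gar1, Rrp12, Ebna1bp2 and Gnl3), against 3034 of all genes (20.7%), so the members' share was close to that of all genes. The standard error was below 0.2 on the log2 scale for 21 of them, and for the remaining 12 only large differences could be seen. Among the 21, Gar1 at -0.51 (SE 0.181, edgeR adjusted p = 0.0792) did not pass, so moderate differences could be missed there too.

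Between NAM-treated and untreated old mice none of the 33 passed (edgeR), none had an unadjusted p below 0.05, and none passed with DESeq2 or limma-voom. Of all genes 0.0136% were higher and 0.0136% lower, 0.0272% in either direction, and 907 had an unadjusted p below 0.05. The 0.0272% is 4 genes. CT010467.1 is counted among them, which is no evidence for that row, since it was selected on its values. The members' log2 fold changes ran from -0.45 (Polr1b) to 0.61 (Rrp12), with a median of -0.0020 and 16 positive. The standard error was below 0.2 for 25 of them. The threshold was strict in this comparison: mt-Rnr2, with an unadjusted p of 9.4e-05, had an adjusted p of 0.197 (edgeR). Moderate differences of members could therefore be missed. Between NAM-treated old and young mice 1 of 33 passed, Taf1c, which rose; 4.73% of all genes were higher and 3.96% lower, 8.7% in either direction. That comparison shares its libraries with the others. None of the 33 lay wholly outside the other group's range in any of the 3 comparisons. Of all genes, 1.33% lay wholly higher and 1.31% wholly lower in old than in young mice, 0.0136% and 0.0136% in NAM-treated than in old mice, and 1.11% and 1.08% in NAM-treated than in young mice. Together the 33 made up 0.114 ± 0.00301% of gene counts in young, 0.115 ± 0.00588% in old and 0.117 ± 0.0108% in NAM-treated mice.

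**Figure D2:**
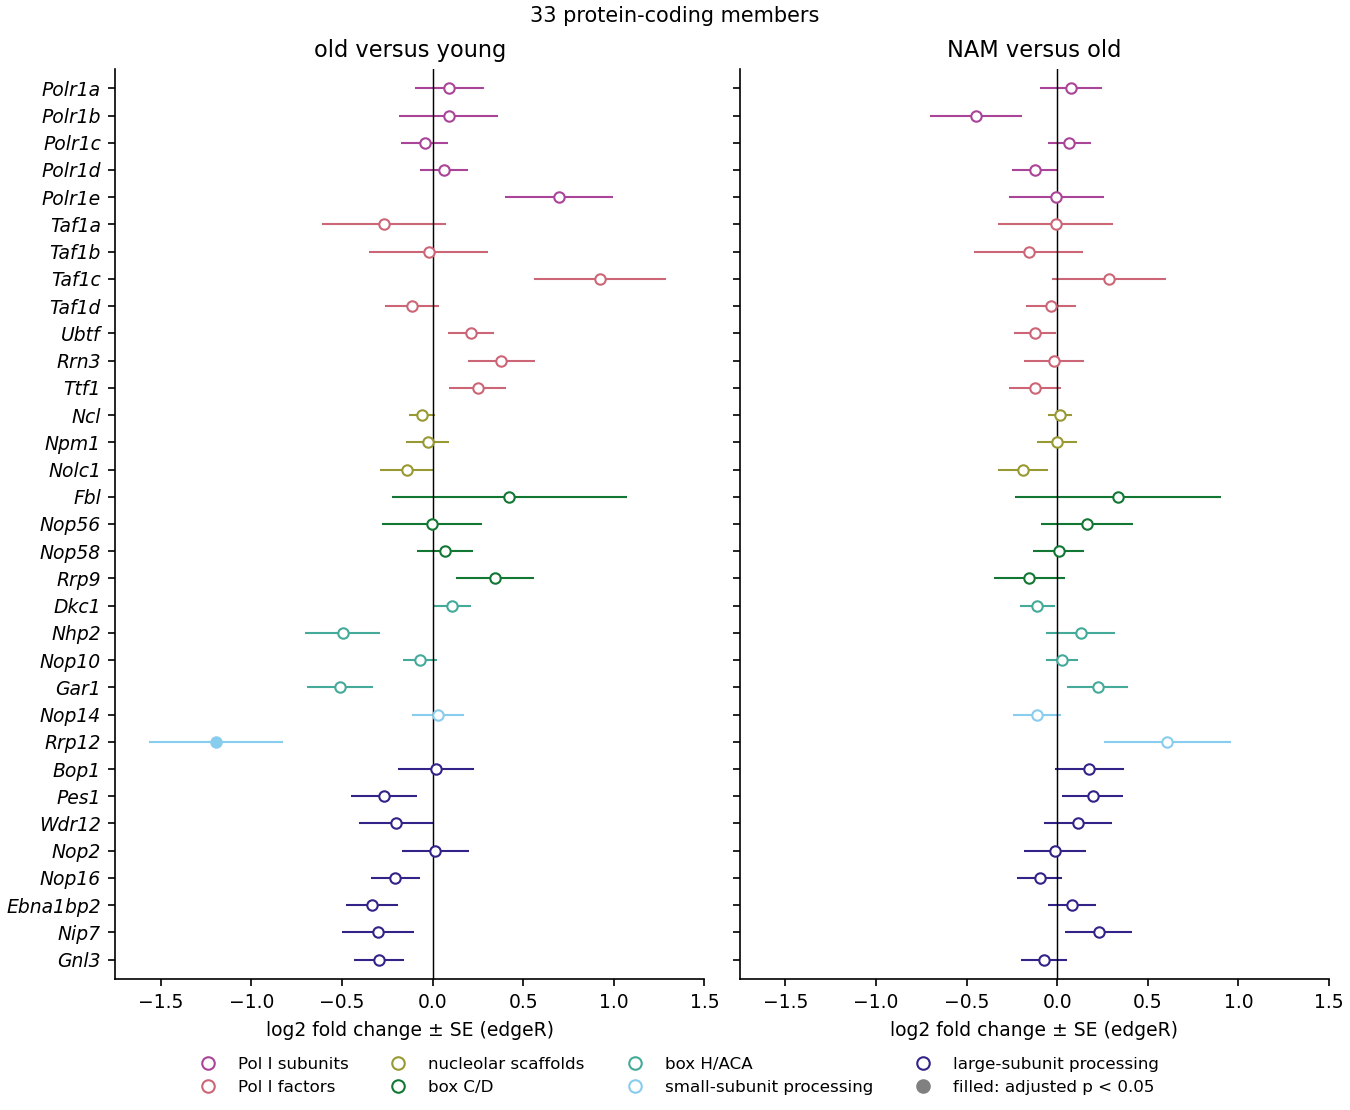
Log2 fold change with its standard error (edgeR) of each of the 33 protein-coding members, coloured by role, for old versus young (left) and NAM-treated versus untreated old mice (right). Filled points have an adjusted p below 0.05: Rrp12 on the left, at -1.19, and none on the right.

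Among the Pol I subunits, the catalytic pair Polr1a and Polr1b and the subunits Polr1c and Polr1d, which Pol I shares with Pol III, stayed between -0.04 and 0.09 in log2 fold change between old and young mice. Polr1e encodes a Pol I-specific subunit that takes part in initiation and elongation. Its level was 2.85, 3.67 and 6.36 CPM (lowest, median and highest library; CPM are counts scaled to the same library total) in young, 3.82, 6.21 and 10.8 in old and 2.56, 6.05 and 9.70 in NAM-treated mice. The young libraries sat low apart from replicate 6, and the groups overlapped. The log2 fold change was 0.70 (SE 0.298, edgeR adjusted p = 0.160) for old versus young and -0.0046 (SE 0.263, adjusted p = 0.998) for NAM versus old. A neighbouring gene, Fbxo10, is annotated on the opposite strand at its 3′ end.

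Polr1d ranged from 26.8 to 53.0 CPM in young libraries, from 31.0 to 48.5 in old ones and from 25.6 to 45.2 with NAM, with medians of 34.0, 36.9 and 33.4. The 3 groups overlapped, and its log2 fold changes were 0.06 (SE 0.135, edgeR adjusted p = 0.852) for age and -0.12 (SE 0.124, adjusted p = 0.929) for NAM. Polr1b had medians of 6.18, 6.48 and 5.15 CPM in young, old and NAM-treated mice and the lowest log2 fold change of the 33 with NAM, -0.45 (SE 0.255, edgeR adjusted p = 0.832). Of its 3′-end words 22.5% occur in other annotated genes.

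The Pol I factors had higher estimates in old mice for 4 of 7 members, none of which passed the test. Taf1c, a promoter-binding subunit of selectivity factor 1, had 0.953, 2.27 and 2.70 CPM (lowest, median, highest) in young mice, from 3 to 18 counts per library. It had 1.45, 4.39 and 8.07 CPM in old and 2.70, 5.64 and 6.59 in NAM-treated mice. Of the NAM-treated libraries 7 lay above all young ones, and replicate 6 was level with the highest young library at 2.70 CPM. The log2 fold change was 0.93 (SE 0.365, edgeR adjusted p = 0.120) for old versus young, 0.29 (SE 0.317, adjusted p = 0.938) for NAM versus old and 1.21 (SE 0.365, adjusted p = 0.0288) for NAM versus young. The last call was lost with limma-voom (adjusted p = 0.0918), without the 4 libraries that stood apart (0.151), and without young replicate 1 (0.0519), 4 (0.0514) or 6 (0.0673) or NAM replicate 7 (0.0504). In GENCODE M21 all of the 3′ end of Taf1c (chromosome 8, 119597871-119605222, minus strand) is shared with Dnaaf1 on the opposite strand, so reads of these genes cannot be told apart here.

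Ubtf, the architectural factor that coats active rRNA genes, had 40.7, 45.5 and 60.1 CPM in young, 44.9, 54.4 and 63.8 in old and 38.8, 46.4 and 79.7 in NAM-treated mice. Old libraries lay mostly above the young median, and the log2 fold changes were 0.21 (SE 0.126, edgeR adjusted p = 0.355) with age and -0.12 (SE 0.115, adjusted p = 0.922) with NAM. Rrn3, the initiation factor that carries growth signals to Pol I, had medians of 14.0, 18.2 and 17.3 CPM and a log2 fold change with age of 0.38 (SE 0.183, edgeR adjusted p = 0.225). Ttf1, the terminator protein, stood at 0.25 (SE 0.158, edgeR adjusted p = 0.392). The other selectivity factor subunits, Taf1a, Taf1b and Taf1d, had log2 fold changes with age of -0.27, -0.02 and -0.11. None of the 7 factors passed for NAM versus old mice, where the values ran from -0.16 (Taf1b) to 0.29 (Taf1c).

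None of the 3 nucleolar scaffold genes passed with all libraries in the fit. Ncl encodes nucleolin, a major RNA-binding protein of the nucleolus. It had 362, 386 and 404 CPM (lowest, median, highest) in young, 346, 365 and 414 in old and 333, 367 and 414 in NAM-treated mice. Of the old libraries 3, and of the NAM-treated ones 4, lay below the lowest young library, and the highest of both lay above the highest young one. The log2 fold changes were -0.06 (SE 0.073, edgeR adjusted p = 0.721) with age and 0.016 (SE 0.067, adjusted p = 0.990) with NAM. Its standard errors were the smallest of the 33, so its differences were bounded more tightly than those of the rest. Npm1, nucleophosmin, had medians of 42.5, 41.9 and 40.9 CPM. Nolc1, a phosphoprotein that shuttles ribonucleoproteins to the nucleolus, had medians of 35.02, 30.0 and 26.1 CPM. Its log2 fold change was -0.14 (SE 0.147, edgeR adjusted p = 0.643) for old versus young and -0.19 (SE 0.136, adjusted p = 0.892) for NAM versus old. For NAM versus young it was -0.33 (SE 0.147, edgeR adjusted p = 0.165), and without young replicate 1 it was -0.46 and called (adjusted p = 0.0338).

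The box C/D proteins guide 2′-O-methylation of rRNA. Fbl, the methyltransferase fibrillarin, was near the limit of detection, with 0 to 10 counts per library in young and 4 to 20 in NAM-treated mice, and 60.3% of its 3′-end words occur in other genes. No statement on fibrillarin can be drawn at this depth. Nop58, a core protein of the particle, had 39.0, 44.1 and 54.7 CPM in young, 30.3, 45.8 and 62.1 in old and 32.9, 45.1 and 70.0 in NAM-treated mice. The medians were level while the old and NAM-treated libraries were more spread out, and the log2 fold change with age was 0.067 (SE 0.154, edgeR adjusted p = 0.863). Rrp9, the protein specific to the U3 particle that starts precursor cleavage, had medians of 7.51, 10.6 and 9.82 CPM and a log2 fold change with age of 0.34 (SE 0.215, edgeR adjusted p = 0.385). Nop56, of which 45.8% of 3′-end words are shared with other genes, stood at -0.0025 (SE 0.278).

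The box H/ACA proteins pseudouridylate rRNA and also bind telomerase RNA. Gar1, one of the 4 core proteins, had 17.2, 23.4 and 29.1 CPM in young, 13.2, 15.3 and 20.7 in old and 8.95, 19.5 and 30.7 in NAM-treated mice. All 8 old libraries lay below the young median, and the NAM-treated ones spread over both ranges. The log2 fold change was -0.51 (SE 0.181, edgeR adjusted p = 0.0792) with age and 0.23 (SE 0.168, adjusted p = 0.898) with NAM. The age difference was called when only young and old libraries were fitted (adjusted p = 0.0291) and without NAM-treated replicate 1 (0.0448) or 3 (0.0418).

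Nhp2, another box H/ACA core protein, had 33.4, 38.4 and 53.0 CPM in young, 12.2, 27.99 and 52.0 in old and 23.6, 30.1 and 39.996 in NAM-treated mice. A single old library reached the top of the young range while most lay below that range, and the log2 fold change with age was -0.50 (SE 0.205, edgeR adjusted p = 0.155). Without old replicate 6 it was -0.67 and called (adjusted p = 0.0147). Nop10, the smallest core protein, had medians of 144, 135 and 137 CPM and a log2 fold change with age of -0.069 (SE 0.095, edgeR adjusted p = 0.750). Dkc1, dyskerin, the pseudouridine synthase itself, had medians of 52.5, 55.0 and 51.5 CPM and a log2 fold change with age of 0.11 (SE 0.103, edgeR adjusted p = 0.621). The enzyme and its partner proteins thus had estimates of opposite sign, and none passed the test.

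Rrp12, a HEAT-repeat protein that accompanies precursors of the small subunit out of the nucleus, was the single member called between old and young mice. It lies on chromosome 19 at 41862851-41896173 on the minus strand (GENCODE M21, GRCm38; ENSMUSG00000035049). Its level was 4.88, 6.66, 5.39, 7.19, 6.37 and 2.86 CPM in young replicates 1 to 6. It was 1.83, 2.97, 3.54, 3.00, 2.55, 3.75, 0.44 and 1.45 CPM in old replicates 1 to 8. Of the young libraries 5 lay above all old ones, and replicate 6 lay within the old range. In NAM-treated mice it was 6.19, 4.97, 3.77, 5.12, 1.80, 2.19, 1.498 and 4.16 CPM, from the lower old values to the upper young ones.

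Rrp12 fell by 1.19 on the log2 scale (SE 0.371, edgeR adjusted p = 0.0402) with age, from 5.56 ± 1.57 CPM (SD, n = 6) to 2.44 ± 1.13 (n = 8), and was 3.71 ± 1.72 (n = 8) with NAM. These means rest on 9 to 46 counts per young and 3 to 23 per old library. The difference between NAM-treated and old mice was 0.61 (SE 0.351, edgeR adjusted p = 0.838). The call was kept without the 4 libraries that stood apart (adjusted p = 0.0325). It was lost in 11 of 30 alternatives: with each of young replicates 1 to 5 and old replicates 1, 2, 5, 7 and 8 left out in turn (adjusted p from 0.05001 to 0.0943), and with the replicate number as a block (0.0989). The log2 fold change stayed between -1.41 and -1.01 in all 30. Nop14, a scaffold of the small-subunit processome, had medians of 22.2, 25.7 and 23.5 CPM and a log2 fold change with age of 0.030 (SE 0.144, edgeR adjusted p = 0.936).

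**Figure D3:**
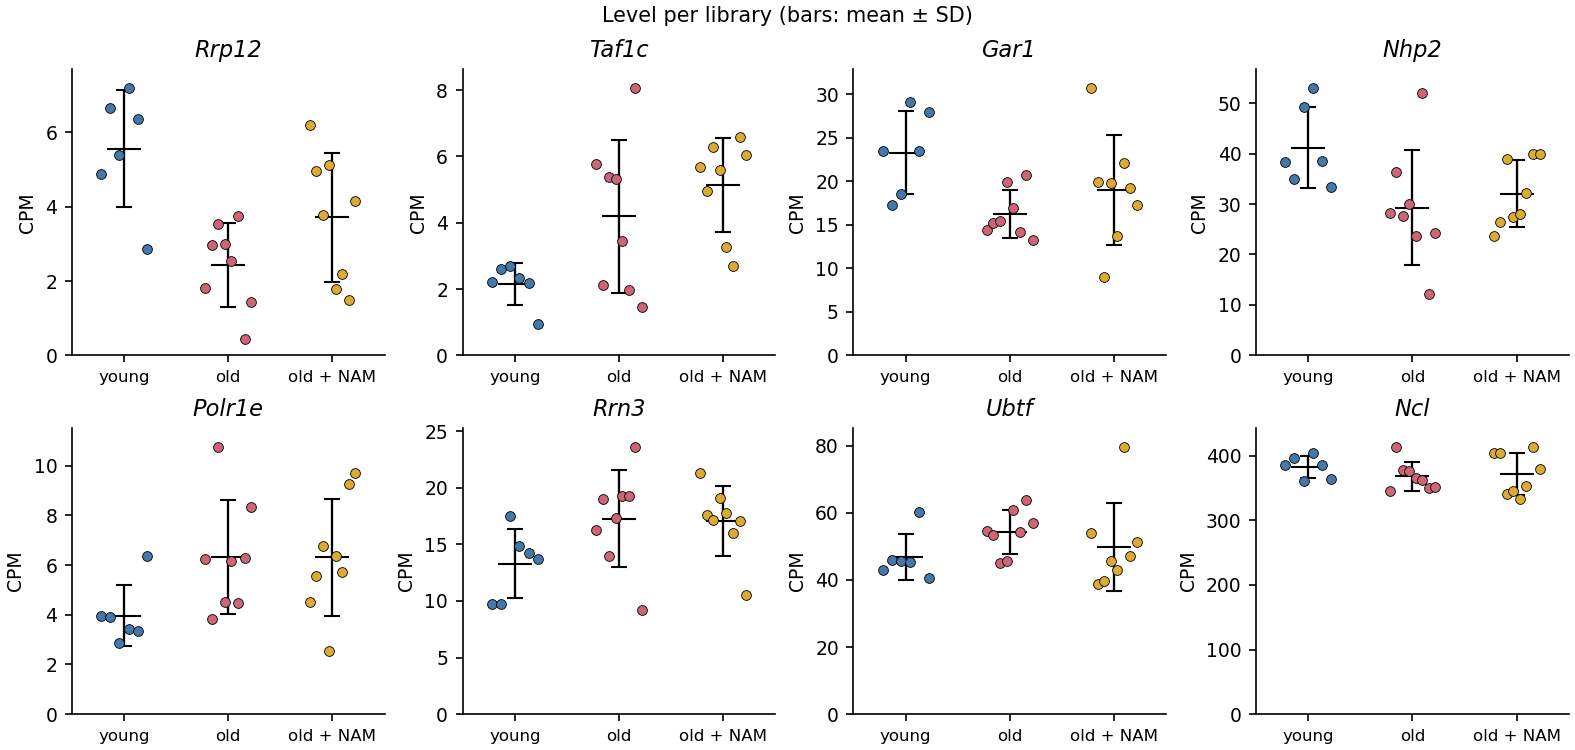
Level in CPM of Rrp12, Taf1c, Gar1, Nhp2, Polr1e, Rrn3, Ubtf and Ncl in each young, old and NAM-treated old library (points) with mean ± SD (bars), on axes that start at 0. Old Rrp12 points, at most 3.75, lie below 5 of the 6 young points, while the 3 groups of Ncl overlap, with 3 old and 4 NAM-treated points below the lowest young one.

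Of the 8 large-subunit factors, 6 had negative estimates with age, with a median of -0.24, and none passed the test. Ebna1bp2, a nucleolar factor of the early large-subunit precursor, had 20.5, 24.7 and 30.6 CPM in young, 15.7, 18.7 and 25.7 in old and 16.8, 21.3 and 25.0 in NAM-treated mice. The old range was shifted below the young one with overlap, and the log2 fold change was -0.33 (SE 0.142, edgeR adjusted p = 0.160). Gnl3, nucleostemin, a GTP-binding protein abundant in proliferating cells, had 32.2, 36.7 and 39.2 CPM in young, 26.1, 27.4 and 37.2 in old and 19.0, 28.9 and 36.5 in NAM-treated mice. Most old libraries lay under the lowest young one. Its log2 fold change was -0.29 (SE 0.137, edgeR adjusted p = 0.203) for old versus young, -0.075 (SE 0.127, adjusted p = 0.964) for NAM versus old and -0.37 (SE 0.136, adjusted p = 0.0839) for NAM versus young. The last was called without NAM-treated replicate 2 (adjusted p = 0.0416) or 8 (0.0340).

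Bop1, Pes1 and Wdr12 form the PeBoW complex that is needed for the maturation of 28S and 5.8S rRNA. Their log2 fold changes with age were 0.018 (SE 0.208), -0.27 (SE 0.182) and -0.20 (SE 0.205), and with NAM 0.18, 0.20 and 0.11. None of the 3 passed the test in any comparison. Nop2, an rRNA cytosine methyltransferase, stood at 0.014 with age, Nop16 at -0.21 and Nip7 at -0.30. With NAM the 8 factors ran from -0.096 (Nop16) to 0.23 (Nip7).

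Inside the groups the members' levels were on average uncorrelated. Over the 25 protein-coding members with a mean of at least 10 CPM, the 300 pairwise correlations of log2(CPM + 1), centred on group means over 22 libraries, had a median of 0.013, against 0.00063 for 8694 genes at that level. The highest was between Nip7 and Gnl3 (0.589) and the lowest between Nhp2 and Nop2 (-0.572). With CT010467.1 the members' correlations ran from -0.546 (Nhp2) to 0.644 (Dkc1). These are descriptions, since all points come from the same libraries.

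RefSeq promoter windows of GRCm38.p6 (250 bases before to 50 after each start) were at hand for 29 of the members. The E-box CACGTG, a palindrome bound by MYC with MAX, which is known to drive genes of ribosome production, was in 3 of 29 (10.3%), against 8.09% of 27025 genes. The motif CTCGCGAG, a palindromic core frequent in promoters of translation genes, was in 0 of 29, against 1.04%. The 3 members with an E-box are shown with the motif in capitals and 20 bases either side, with positions in GRCm38.p6, because MYC is among the regulators counted below; Rrn3 has 2 of them. Their log2 fold changes with age were 0.014 (Nop2), -0.27 (Pes1) and 0.38 (Rrn3), and none passed the test:
Nop2, chr6:125131803-125131848, plus strand: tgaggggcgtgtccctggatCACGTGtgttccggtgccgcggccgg
Pes1, chr11:3963957-3964002, plus strand: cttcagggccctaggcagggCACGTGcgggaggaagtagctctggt
Rrn3, chr16:13780464-13780509, plus strand: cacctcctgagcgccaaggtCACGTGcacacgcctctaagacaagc
Rrn3, chr16:13780631-13780676, plus strand: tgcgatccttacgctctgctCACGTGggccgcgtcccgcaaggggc
A match of letters is not a binding site, and no binding was measured. Myc itself ranged from 0.300 to 3.91 CPM in young libraries, from 1.27 to 5.43 in old ones and from 0.480 to 3.30 with NAM, with a log2 fold change with age of 1.29 (SE 0.542, edgeR adjusted p = 0.152).

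Other genes of the pathway were counted in lists by function, to be read against the 3.9% of all genes that were higher and the 3.15% that were lower with age. Among 24 regulators of rRNA genes 1 fell with age, Mtor, the growth kinase that activates RRN3. It had 87.1, 90.6 and 112 CPM in young, 46.9, 61.2 and 75.8 in old and 34.2, 74.7 and 87.5 in NAM-treated mice. The old libraries all lay below the young ones, and its log2 fold change was -0.62 (SE 0.131, edgeR adjusted p = 0.00294), which held in all 30 alternatives. With NAM it was 0.23 (SE 0.122, adjusted p = 0.822).

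Of 17 genes of the RNA exosome, which trims the 3′ ends of rRNA precursors, 2 fell with age and none rose. Mtrex, the helicase that feeds RNA to the exosome, had medians of 126, 98.7 and 78.3 CPM in young, old and NAM-treated mice. The old libraries (86.4 to 112) lay below the young ones (120 to 149), and the log2 fold change with age was -0.42 (SE 0.098, edgeR adjusted p = 0.00549), called in all 30 alternatives. Exosc7, a ring subunit, changed by -0.42 (SE 0.130, edgeR adjusted p = 0.0419), with the call lost in 13 of 30 alternatives, among them those without young replicate 1, 2, 4 or 6 or old replicate 1, 2, 5, 7 or 8 (adjusted p from 0.0540 to 0.0985).

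Of 57 small-subunit factors 1 rose and 1 fell with age: Utp14a (log2 fold change 0.73, edgeR adjusted p = 0.0408) and Bysl (-0.65, adjusted p = 0.0442). Of 55 large-subunit factors 1 fell, the nucleostemin relative Gnl3l (-0.43, edgeR adjusted p = 0.0368). Of 23 genes of Pol III, the polymerase that makes 5S rRNA, 1 fell, Gtf3c1 (-0.35, edgeR adjusted p = 0.0374). The 3.51% called of the small-subunit, 1.82% of the large-subunit, 4.35% of the Pol III and 4.17% of the regulator genes were below the 7.04% called of all genes, and the 11.8% of the exosome list is 2 genes, so nothing particular to a list is read from these counts. Of 10 other rRNA or rRNA-like symbols listed, 3 had a row and were tested. Of these 3 rows 1 fell, Lars2 (-0.44, edgeR adjusted p = 0.0406), which encodes a mitochondrial leucyl-tRNA synthetase. These calls were lost in 12 of 30 alternatives for Utp14a, 13 for Bysl, 11 for Gnl3l, 9 for Gtf3c1 and 7 for Lars2. The calls lay near the threshold, and leaving out any 1 of several libraries lost them. With all libraries kept, Utp14a, Bysl, Gnl3l and Gtf3c1 were not called when the filter on low counts was dropped. Utp14a and Gtf3c1 were also not called with the replicate block, nor Utp14a with limma-voom. Utp14a was not called without young replicate 1, 2, 3 or 4 or old replicate 2, 5, 6 or 7 (adjusted p from 0.0650 to 0.133). Bysl was not called without young replicate 1, 2, 3, 4 or 6 or old replicate 1, 2, 3, 4, 6 or 7 (0.0526 to 0.110). Gnl3l was not called without young replicate 2, 4, 5 or 6 or old replicate 2, 5, 6, 7 or 8 (0.0510 to 0.0809). Gtf3c1 was not called without young replicate 2, 3 or 4 or old replicate 3, 7 or 8 (0.0540 to 0.105), nor Lars2 without young replicate 1, 2 or 4 or old replicate 1, 2, 6 or 7 (0.0533 to 0.129). Without the 4 libraries that stood apart, Utp14a, Bysl, Gnl3l, Gtf3c1 and Exosc7 were not called.

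None of 7 further Pol I or shared polymerase subunits passed with age (edgeR; 0 at an unadjusted p below 0.05), the lowest p being that of Polr2f (log2 fold change -0.13, adjusted p = 0.555). None of 11 snoRNP assembly factors passed either (edgeR; 0 at an unadjusted p below 0.05), where Shq1 was lowest (-0.66, adjusted p = 0.439). The medians of the lists with age ran from -0.094 (exosome) to 0.089 (other rRNA rows). With NAM against old mice no gene of any of these lists passed (edgeR). There 2 of 3 rRNA rows, 1 of 24 regulators, 5 of 57 small-subunit, 5 of 55 large-subunit and 2 of 17 exosome genes had an unadjusted p below 0.05, against 6.18% of all genes, so nothing is read from these counts. The mitochondrial rRNAs had log2 fold changes with NAM of -0.25 (mt-Rnr1, SE 0.067, edgeR adjusted p = 0.355) and -0.29 (mt-Rnr2, SE 0.067, adjusted p = 0.197).

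Between NAM-treated old and young mice, which shares the young libraries with the comparison by age, 2 listed genes rose and 5 fell, to be read against the 4.73% of all genes that were higher and the 3.96% that were lower. Those that fell were Mtrex (log2 fold change -0.67, edgeR adjusted p = 2.23e-05), Utp20, a scaffold of the small-subunit processome (-0.76, adjusted p = 0.00268), Gtf3c1 (-0.45, adjusted p = 0.00448), Sbds, which helps to free the new large subunit for translation (-0.40, adjusted p = 0.0104), and Lars2 (-0.42, adjusted p = 0.0471). Those that rose were Utp14a (0.76, adjusted p = 0.0267) and the Pol III factor Gtf3c2 (0.33, adjusted p = 0.0271). Mtrex, Utp20, Gtf3c1 and Sbds were called in all 30 alternatives. The call was lost in 14 for Lars2, 7 for Gtf3c2 and 5 for Utp14a. Lars2 was not called without young replicate 1, 2, 3, 4 or 6, old replicate 2 or NAM-treated replicate 1, 2, 3, 4 or 7 (adjusted p from 0.0510 to 0.142). Gtf3c2 was not called without young replicate 1, 3 or 4 or NAM-treated replicate 8 (0.0602 to 0.102), nor Utp14a without young replicate 1, 3 or 4 or NAM-treated replicate 7 (0.0516 to 0.0902). Without the 4 libraries that stood apart, Lars2 and Utp14a were not called. With age, Utp20 stood at -0.47 (SE 0.167, edgeR adjusted p = 0.0792).

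**Figure D4:**
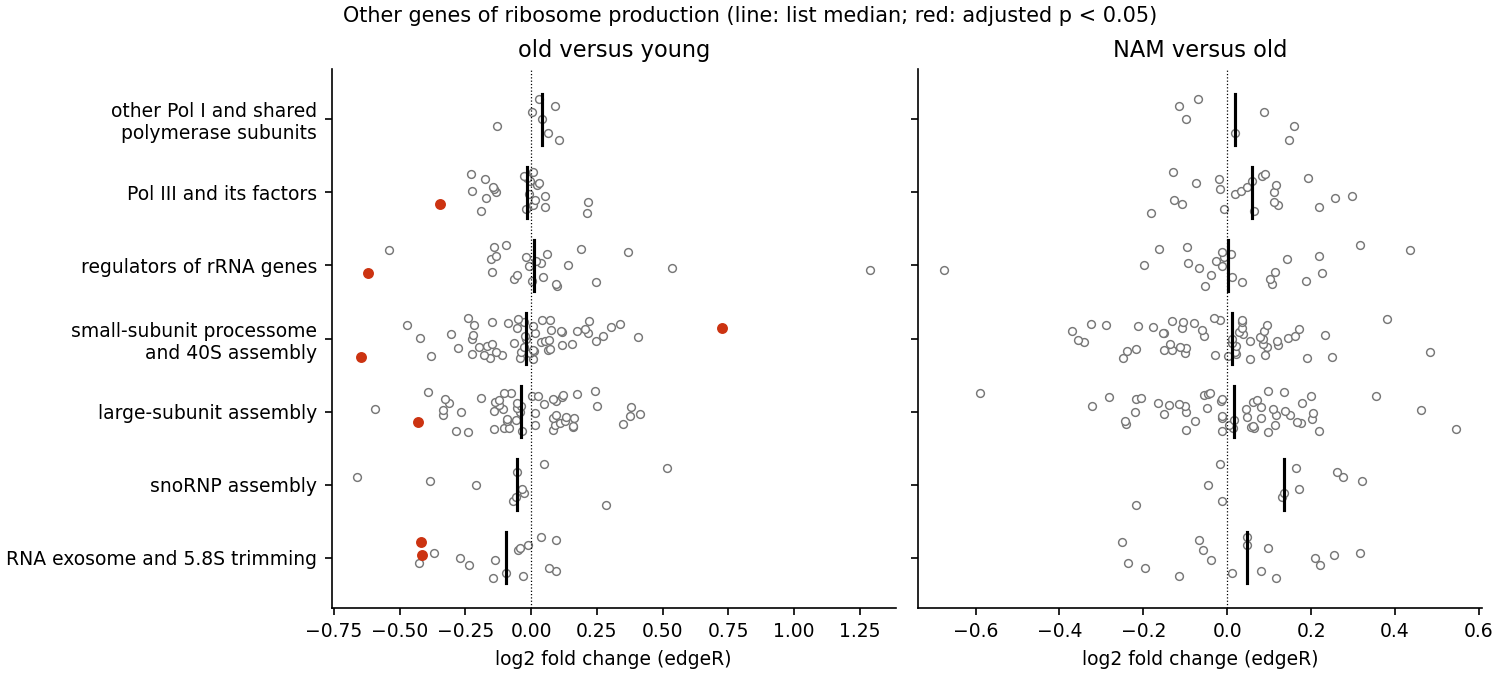
Log2 fold change (edgeR) of each tested gene in 7 lists of ribosome production outside the members, for old versus young (left) and NAM-treated versus untreated old mice (right). Vertical lines are list medians and red points have an adjusted p below 0.05; there are 7 on the left, among them Mtor at -0.62 and Utp14a at 0.73, and none on the right.

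The tissue label was met by proximal tubule markers, whose summed level was 31394 to 35837 CPM for young, 19796 to 29992 for old and 13281 to 33715 for NAM-treated mice, with 0 of 10 past the test with age. That sum lay wholly lower in old than in young mice. With age 7 of the 10 had a negative and 3 a positive log2 fold change, with a median of -0.32. Of these 10, 4 had an unadjusted p below 0.05 (edgeR), against 20.7% of all genes. Markers of other cells also differed with age: 8 of 11 leukocyte genes rose (summed level 337 to 421 CPM in young and 635 to 1184 in old), as did 5 of 6 fibroblast genes. None of 11 proliferation genes passed (summed level 69.2 to 86.8 CPM in young, 76.6 to 100.0 for old mice). Of 6 immediate early genes, Junb and Egr1 rose with age. Adipocyte markers, 0 of 4 past the test, summed to at most 25.6 CPM in young, 72.2 in old and 368 in NAM-treated mice, with libraries at 0 in each group. No gene of these lists passed between NAM-treated and old mice. The part of cell composition in the levels of Rrp12, Mtor, Mtrex and the other members was not tested.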

How the data were processed

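Kidney RNA of 22 mice was made into QuantSeq 3′ libraries with oligo(dT) priming, per the labels' protocols. The authors deposited raw read counts per mouse gene; STAR and HTSeq are named in the submitters' processing notes, which also name GRCh38, a human build, while all gene identifiers are of mouse. The sources used here give no versions, annotation or strand setting. The replicate numbers come from the labels, which name no batch. CPM (counts scaled to a common library total) were computed from the deposited counts with TMM library sizes. Members and lists were chosen with earlier results of these data known, and the members by function.

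Genes were tested with edgeR 4.0.16 (quasi-likelihood, robust, two-sided, R 4.3.3) in 1 fit over all 22 libraries, after TMM and filterByExpr (minimum count 10, minimum total 15), with Benjamini-Hochberg adjustment over all 14683 genes tested and a threshold of 0.05. DESeq2 1.42.0 and limma 3.58.1 (voom), other size factors, no filter, a replicate block, fewer groups or libraries, and leaving rRNA rows out of the library sizes were alternatives. The 4 libraries that stood apart were young 6, old 7 and NAM-treated 1 and 7. CT010467.1 stayed in the fit and in the counts over all genes, but no test of it is given, because its values led to its choice. Planned tests of its share and of that share's correlations were therefore left out. Named in full were the members past the threshold and, per role, those with the lowest p with age and the highest CPM; other genes were named if they passed with age or with NAM against old mice in a list of at most 6 passing genes, or had the lowest p where none passed; Myc, Polr1b, Dkc1, Npm1, Utp20, Sbds, Gtf3c2, mt-Rnr1 and mt-Rnr2 were added after their values were seen. Same-numbered libraries did not deviate together (20 pairs, r from -0.082 to 0.059). All within-group pairs of libraries differed by more than sampling noise, and 0 count columns had no sample. Summary rows of the counter stayed out of the library sizes. Sampling error of a library's CT010467.1 share was at most 0.0224 percentage points (Wilson 95% half-width), which covers counting error only. The test was tried on simulated counts first. Sequence comparisons used GENCODE M21 (50-base words of the last 300 bases; whole transcripts for CT010467.1).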

Additional observations from a re-analysis of the deposited data

Results flagged for a closer look

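Of 117 sets of values (a member or read measure in 1 group) that were examined for a library far from the rest of its group, 12 held one. Chance gives about 1 in 20. Polr1d was 53.0 CPM in young replicate 3, against 26.8 to 36.1 in the other young libraries, and 48.5 in old replicate 3, against 31.0 to 38.5. Young replicate 6, the shallowest library with 3351065 gene counts against 6115567 to 7184997, stood apart in 3 members: Polr1e at 6.36 CPM (others 2.85 to 3.93), Taf1c at 0.953 CPM (others 2.18 to 2.70) and Nop14 at 34.0 CPM (others 19.9 to 24.9). Young replicate 5 stood apart with Ubtf at 60.1 CPM (others 40.7 to 46.0) and Nop56 at 4.19 CPM (others 6.04 to 6.80). Ubtf was 79.7 CPM in NAM-treated replicate 6 (others 38.8 to 54.1), Ncl 414 CPM in old replicate 2 (others 346 to 378), and Bop1 19.0 CPM in NAM-treated replicate 7 (others 8.52 to 11.9). NAM-treated replicate 2 was the deepest of its group with 8319865 gene counts, against 5663649 to 6752083.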

How the results depend on the processing

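The log2 ratio of the CT010467.1 share in NAM-treated against old mice was -0.52 to -0.43 over every scaling and each left-out library tried. The groups did not overlap under any scaling. Leaving out a library cannot make groups overlap that do not overlap with all libraries, so overlap was no check there. Since the row was selected on its values, this is a description and not evidence for a difference. No member was called for NAM versus old under any of the 30 alternatives. For old versus young the number called was 0 with the replicate block and 2 with only the 2 groups compared, and 0 to 2 with 1 library left out. For NAM versus young it was 0 with limma-voom, 0 without the 4 libraries that stood apart, and 0 to 2 with 1 library left out. Same-numbered libraries share only a number; the replicate block called 519 genes higher and 385 lower with age, against 572 and 462. Leaving out 1 library turned the sign of small estimates with age: Nop14 (-0.027 to 0.14), Nop58 (-0.0086 to 0.13) and Polr1d (-0.0089 to 0.20). The relation of the CT010467.1 share to mt-Rnr1 plus mt-Rnr2 was 0.393 after centring on group means, and that to the gene count changed sign, to 0.024 after centring and 0.031 without 2 libraries. The causes were not tested. Over all genes, NAM versus old gave 4 calls, against 10 with DESeq2 (3 higher, 7 lower), 7 without the filter, 6 without the 4 libraries that stood apart, 1 with rRNA rows left out, where CT010467.1 was not tested, and 1 to 9 with 1 library left out (9 without NAM-treated replicate 1). With age, 572 genes were higher and 462 lower, against 403 and 267 without young replicate 2 and 395 and 273 without young replicate 4. For NAM versus young these numbers were 695 and 582, against 442 and 359 without the 4 libraries and 479 and 356 without young replicate 2. Members with few counts, Fbl above all, limit what can be seen at this depth.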
